A study of Mus musculus with 2 samples.

Results

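Zfp36, Zfp36l1, Zfp36l2, Zc3h12a, Rc3h1 and Elavl1 encode proteins that control how long cytokine mRNAs last. These 6 genes were chosen by function and taken by symbol from the deposited tables, out of 23444 gene symbols in all. The tables hold RNA-seq of cultured macrophages that were grown out of the bone marrow of FVB mice. There were 2 libraries, 1 per group. One was labelled RON TK-/- (RON deficient) and the other WT (RON proficient), RON being the receptor tyrosine kinase encoded by Mst1r. Per both labels the cells had 72 hours of recombinant interleukin-4 (10 ng/mL), the cytokine that drives alternative activation of macrophages. How many mice stood behind each culture, and their age, is not stated in the labels. Each group had 1 library, so no difference has a replicate check and none was tested, and "higher" or "lower" compares these libraries as labelled.

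Cytokine mRNAs are short-lived because proteins bind their 3′ untranslated regions (3′ UTRs) and bring in decay enzymes. ZFP36 (tristetraprolin) and its relatives ZFP36L1 and ZFP36L2 use zinc fingers to hold AU-rich elements and recruit the CCR4-NOT complex, which shortens the poly(A) tail. Regnase-1, the product of Zc3h12a, is an endonuclease that cuts stem-loops, and roquin-1, the product of Rc3h1, binds stem-loops and also recruits CCR4-NOT. HuR, the product of Elavl1, binds AU-rich elements too but is known mainly for stabilising the mRNA. In macrophages the destabilising proteins are best known for limiting the output of tumour necrosis factor and interleukin-6 after an inflammatory stimulus.

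The sequences below show what the AU-rich binding proteins recognise, and that most of the genes carry the motif in their own mRNA. The full ZFP36 motif, the nonamer UUAUUUAUU, was searched on the sense strand of 3′ UTRs of GENCODE transcripts matched by RefSeq identifier, overlapping matches included. It occurred in 7.42% of the 10389 detected genes with a matched 3′ UTR. Zfp36, Zfp36l1, Zfp36l2 and Rc3h1 had 1 nonamer each, Elavl1 had 8, and Zc3h12a had 0. For comparison, 5 lay in the 3′ UTR of Tnf, the tumour necrosis factor gene and the best known ZFP36 target. Each line gives a stretch of 30 bases, 5′ to 3′, with the nonamers in capitals.
Zfp36: uaugacgacuUUAUUUAUUguauuaagauu
Zfp36l1: aacuguuggaUUAUUUAUUuuagaaauucu
Zfp36l2: acuauuuaacUUAUUUAUUaucuugugaaa
Rc3h1: acuuuacucaUUAUUUAUUgagaugaggag
Elavl1: aaaaUUAUUUAUUUAUUUAUUUAUUuuuau
Tnf: acuuaUUAUUUAUUAUUUAUUUAUUauuua

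On the mm10 build these stretches lie at chr7:28376950-28376979 (Zfp36, minus strand), chr12:80108166-80108195 (Zfp36l1, minus), chr17:84184913-84184942 (Zfp36l2, minus), chr1:160970043-160970072 (Rc3h1, plus), chr8:4285781-4285810 (Elavl1, minus) and chr17:35199683-35199712 (Tnf, minus). All are in annotated 3′ UTRs. In the Elavl1 stretch 4 nonamers overlap. The fifth starts in its last bases, and the other 3 lie wholly beyond it. The Tnf stretch holds 3 of its 5. A match gives only the letters and does not show that a protein was bound. The 3′ UTRs were 774 bases long for Zfp36, 1835 for Zfp36l1, 1822 for Zfp36l2, 856 for Zc3h12a, 7181 for Rc3h1 and 4218 for Elavl1.

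The labelled treatment and the activation state of the libraries have to be read before the values. Arg1, Retnla and Chil3, genes induced by interleukin-4, had 5041, 3665 and 4604 FPKM in the RON TK-/- labelled library. In the WT labelled library, Arg1 had 1.0 FPKM, and Retnla and Chil3 were listed at 0. Mrc1, another gene of this state, had 1016 FPKM in the RON TK-/- labelled library and 71.2 FPKM in the WT labelled library. The inflammatory genes Tnf, Il1b and Nos2 had 0.52, 0.20 and 3.63 FPKM in the RON TK-/- labelled library, against 1262, 823 and 1100 FPKM in the WT labelled library. The chemokine gene Cxcl10 had 0.23 FPKM in RON TK-/- and 4711 FPKM in WT. The WT labelled library thus went against its stated treatment, and genotype, activation state and library cannot be told apart. Mst1r was listed at 0 in both and checked neither label. Estimated reads, coverage times transcript length over the read length, summed to 61915250 in the RON TK-/- labelled library and 54165464 in the WT labelled library.

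Macrophage markers summed to 6309 FPKM in the RON TK-/- labelled library and 5531 in the WT labelled library, with 8 of 8 detected. Most of either sum was Lyz2, with 4651 FPKM in RON TK-/- and 3317 FPKM in WT. By 2-fold or more, 12.5% of the 8 were higher and 37.5% lower in RON TK-/-, against 25.6% and 8.71% of all detected genes. Of the 8 markers 1 was higher by 2-fold or more in the RON TK-/- labelled library, the integrin gene Itgam (185 FPKM in RON TK-/-, 61.0 in WT). Another 3 were lower by as much, namely the lipopolysaccharide co-receptor gene Cd14 (33.7 in RON TK-/-, 1010 in WT), the Fc receptor gene Fcgr1 (3.58 in RON TK-/-, 26.6 in WT) and the efferocytosis receptor gene Mertk (9.68 in RON TK-/-, 32.5 in WT). Dendritic, neutrophil, T and NK, B and mast cell lists summed to between 0.05 and 1.75 FPKM in the RON TK-/- labelled library and between 0.23 and 3.96 in the WT labelled library. The 3.96 FPKM came from Lck alone (0.34 in RON TK-/-), and the other 5 T and NK markers were listed at 0 in both libraries. The fibroblast list was not near 0. It summed to 892 FPKM in the RON TK-/- labelled library and 669 FPKM in the WT labelled library, with 5 of 6 genes detected and none at 0. Of the 5 detected, 2 were higher by 2-fold or more in the RON TK-/- labelled library and 0 lower by as much. These were the collagen gene Col3a1 (171 FPKM in RON TK-/-, 48.5 in WT) and the growth factor receptor gene Pdgfra (24.3 in RON TK-/-, 8.93 in WT). Col1a1 (250.0 in RON TK-/-, 195 in WT), Col1a2 (433 in RON TK-/-, 407 in WT) and Dcn (13.9 in RON TK-/-, 8.85 in WT) were within 2-fold, and Lum was below 1 FPKM in both libraries. Relative to the median ratio of all detected genes, 1 fibroblast gene stayed 2-fold higher, Col3a1, and 0 were lower. The macrophage counts on that scale were again 1 higher and 3 lower. Of all detected genes 8.38% were higher and 14.4% lower on that scale. The part of these cell type markers in the results that follow was not tested.

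All 6 decay genes were detected in both libraries, each as 1 transcript row. FPKM is fragments per kilobase of a transcript, scaled to library depth, so levels of different genes can be compared. A ratio is log2 of FPKM + 1 in the RON TK-/- labelled library divided by FPKM + 1 in the WT labelled library, and "2-fold" is counted on that scale. Of the 6 genes, 1 was higher by 2-fold or more and 2 lower by as much in the RON TK-/- labelled library. Among all 11288 detected genes 25.6% were higher by 2-fold or more and 8.71% lower by as much. The median ratio of all detected genes was 0.57, against -0.08 for the 6. Set against that all-gene median the same counts held for the 6, with 1 higher and 2 lower, while the shares of all genes were 8.38% and 14.4%. With 6 genes these shares are a description only.

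**Figure D1:**
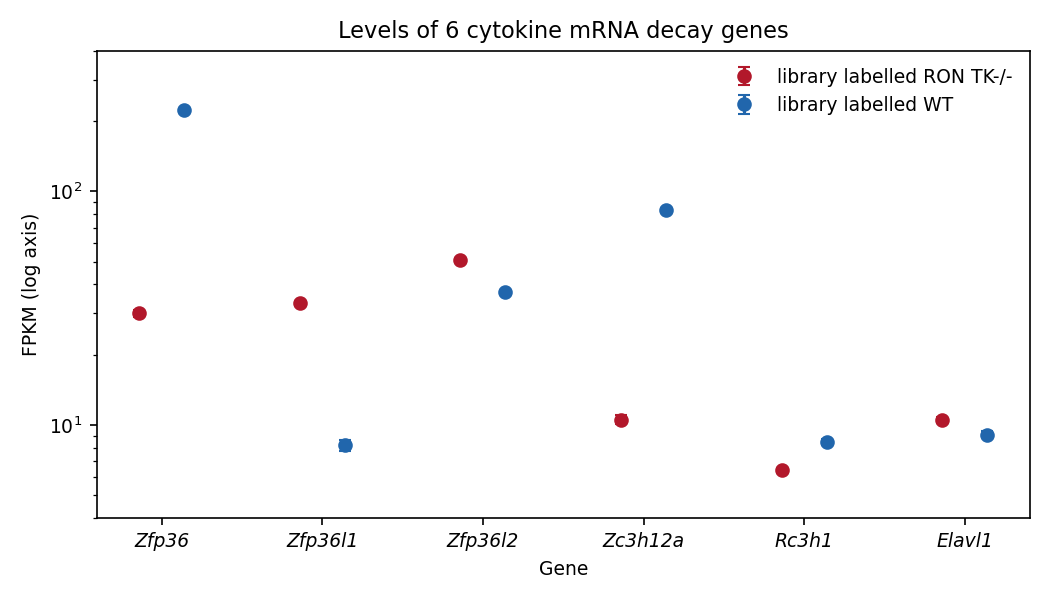
FPKM (log axis) of each decay gene in the RON TK-/- labelled library (red) and the WT labelled library (blue). Bars are 95% Poisson limits of the estimated reads, mostly smaller than the points, and cover counting error only. Zfp36 and Zc3h12a are lower in the RON TK-/- labelled library, Zfp36l1 is higher, and the other genes lie within 2-fold.

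Zfp36 was the most abundant of the 6 genes in the WT labelled library and the third in the RON TK-/- labelled library. It lies on chromosome 7 from 28376784 to 28379228, minus strand. It had 30.02 FPKM in the RON TK-/- labelled library (95% counting limits 29.0 to 31.0), against 223 FPKM in the WT labelled library (221 to 226). These values rest on about 3586 estimated reads in the RON TK-/- labelled library and 23822 in the WT labelled library. The WT labelled library was 7.44-fold higher (7.19 to 7.71), and the log2 ratio was -2.86. Only 242 of the 11288 detected genes had a lower ratio. In bulk RNA, fewer cells that express a gene and less RNA per cell cannot be told apart.

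Zfp36l1, which binds the same AU-rich elements, went the other way. Its locus is chromosome 12 from 80107760 to 80113013, minus strand. It had 33.2 FPKM in the RON TK-/- labelled library (32.4 to 34.0), against 8.18 FPKM in the WT labelled library (7.76 to 8.61), from about 6415 and 1441 estimated reads. The ratio of FPKM was 4.05 (3.83 to 4.30) and the log2 ratio 1.90. A higher ratio was seen for 495 detected genes.

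Zfp36l2, the third gene of the family, differed little. It lies on chromosome 17 from 84183928 to 84187947, minus strand, and had 51.0 FPKM in the RON TK-/- labelled library, against 37.0 FPKM in the WT labelled library. The log2 ratio was 0.45 as deposited and -0.11 set against the all-gene median, so its direction depends on the scaling. Annotated noncoding genes on the opposite strand overlap all 3 family loci (Gm44710 at Zfp36, Gm26669 at Zfp36l1, AC132455.1 at Zfp36l2). The labels do not say whether counting used strand, so reads of a gene and of its antisense partner cannot be told apart.

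The makeup of the family therefore differed between the libraries, a comparison that no scaling between libraries can move. Zfp36 made up 26.3% of the summed FPKM of the 3 genes in the RON TK-/- labelled library, against 83.2% in the WT labelled library. Zfp36l1 made up 29.1% and Zfp36l2 44.7% in the RON TK-/- labelled library, against 3.04% and 13.8% in the WT labelled library. Zfp36l2 led the family in the RON TK-/- labelled library, and Zfp36 led it in the WT labelled library. Zfp36 stood at 0.91 times the level of Zfp36l1 in the RON TK-/- labelled library and at 27.3 times in the WT labelled library. The sum of the family was 114 FPKM in the RON TK-/- labelled library, against 269 FPKM in the WT labelled library. Without Zfp36 it was 84.1 FPKM in the RON TK-/- labelled library and 45.2 FPKM in the WT labelled library.

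**Figure D2:**
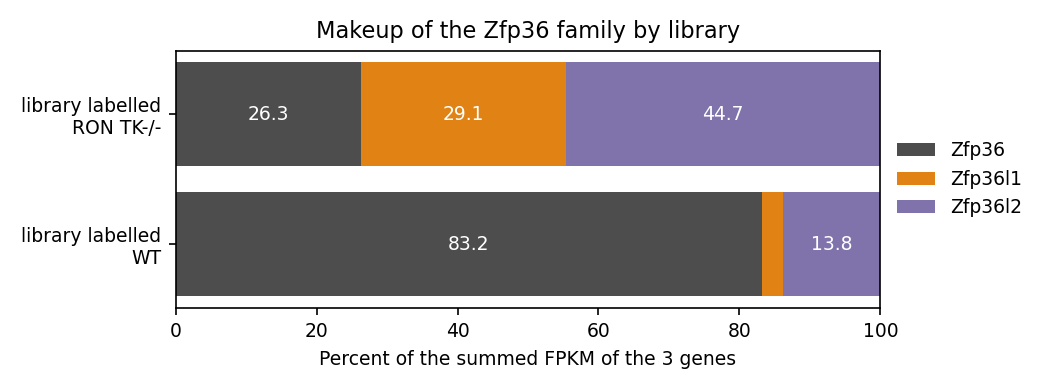
Share of the summed FPKM of Zfp36, Zfp36l1 and Zfp36l2 held by each gene, in percent, with the RON TK-/- labelled library above the WT labelled library. Zfp36 holds 26.3% above and 83.2% below, where Zfp36l1 (unlabelled sliver) holds 3.04%.

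Zc3h12a, the regnase-1 gene, was lower in the RON TK-/- labelled library by nearly the same factor as Zfp36. It lies on chromosome 4 from 125118414 to 125127881, minus strand. It had 10.5 FPKM in the RON TK-/- labelled library (10.1 to 11.0), against 83.5 FPKM in the WT labelled library (82.1 to 84.9), from about 1996 and 14164 estimated reads. The WT labelled library was 7.94-fold higher (7.58 to 8.33), a log2 ratio of -2.88. Zfp36 was 2.86 times as abundant as Zc3h12a in the RON TK-/- labelled library and 2.68 times in the WT labelled library. Both genes were lower together, and the balance between them differed little.

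Rc3h1, the roquin-1 gene, and Elavl1, the HuR gene, were within 2-fold. Rc3h1 spans 160906411 to 160974976 on chromosome 1, plus strand, and had 6.38 FPKM in the RON TK-/- labelled library, against 8.45 FPKM in the WT labelled library. Its log2 ratio was -0.36, and -0.92 set against the all-gene median. On the same strand 3 annotated genes (Gm37052, Gm37809 and Gm37653) lie within its locus, and strand cannot tell apart reads of genes on 1 strand. Elavl1 spans 4284782 to 4325100 on chromosome 8, minus strand, and had 10.5 FPKM in the RON TK-/- labelled library, against 9.06 FPKM in the WT labelled library. Its log2 ratio was 0.20 as deposited and -0.37 relative to that median, so its direction, too, depends on the scaling.

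Set against the stabiliser Elavl1 within each library, Zfp36 and Zc3h12a stood lower in the RON TK-/- labelled library and Zfp36l1 higher. Zfp36l2 and Rc3h1 differed by less than 2-fold. Zfp36 was at 2.85 times the FPKM of Elavl1 in the RON TK-/- labelled library and 24.7 times in the WT labelled library. Zc3h12a was at 0.998 times in the RON TK-/- labelled library and 9.22 times in the WT labelled library. Zfp36l1, Zfp36l2 and Rc3h1 were at 3.15, 4.84 and 0.61 times in the RON TK-/- labelled library, against 0.90, 4.09 and 0.93 times in the WT labelled library. These are ratios of mRNA levels, and protein was not measured.

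The order of levels was Zfp36l2, Zfp36l1, Zfp36, Elavl1, Zc3h12a and Rc3h1 in the RON TK-/- labelled library, from highest to lowest. Elavl1 and Zc3h12a had the same level there within counting error. In the WT labelled library the order was Zfp36, Zc3h12a, Zfp36l2, Elavl1, Rc3h1 and Zfp36l1, with the counting limits of Rc3h1 and Zfp36l1 overlapping. Zfp36 passed 79.0% of detected genes in level in the RON TK-/- labelled library and 97.1% in the WT labelled library. Zfp36l1 and Zc3h12a passed 80.9% and 51.1% in the RON TK-/- labelled library, against 54.8% and 92.3% in the WT labelled library.

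**Figure D3:**
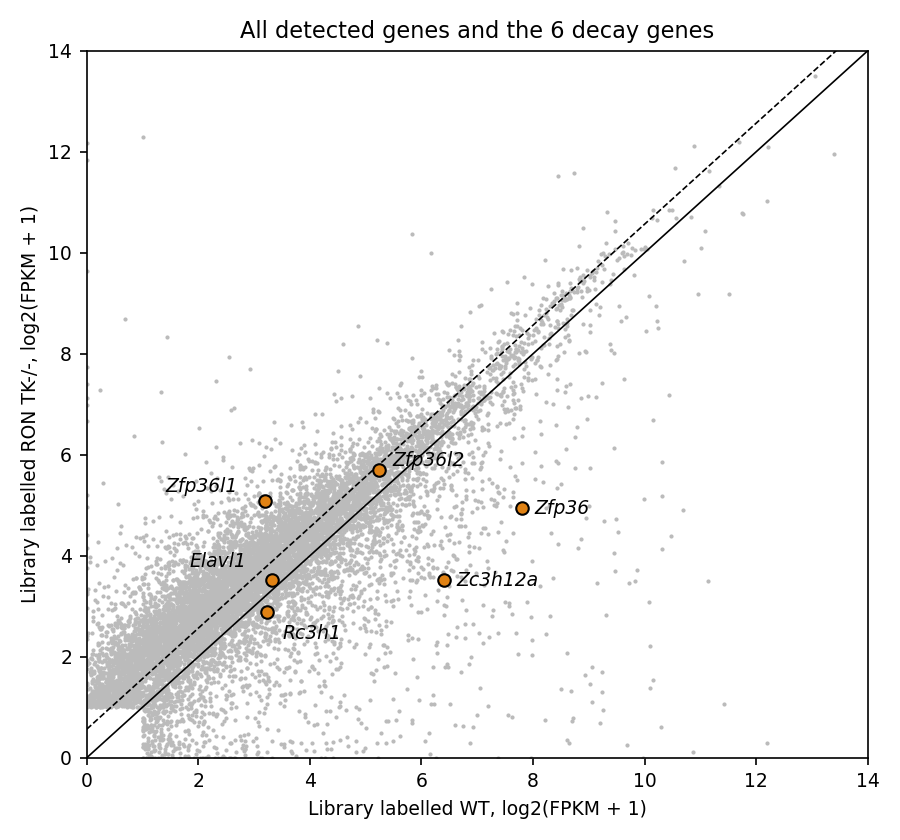
Levels of all 11288 detected genes (grey) as log2(FPKM + 1), with the RON TK-/- labelled library on the vertical and the WT labelled library on the horizontal axis. The solid line marks equal values and the dashed line the median log2 ratio of 0.57. Zfp36 and Zc3h12a lie far below both lines, Zfp36l1 above both, Elavl1 and Zfp36l2 between them, and Rc3h1 just below the solid line.

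The genes nearest in pattern were found by distance in the log2(FPKM + 1) values of the libraries, among 8112 genes of at least 5 FPKM in a library. With only 2 libraries this says no more than that the levels were alike. Nearest to Zfp36 were H2-Q4 (30.7 FPKM in the RON TK-/- labelled library, 191 in the WT labelled library) and Irf5 (34.8 in RON TK-/-, 198 in WT). H2-Q4 belongs to a family of near-identical copies, so its value is uncertain. Nearest to Zc3h12a were Parp12 (11.7 in RON TK-/-, 82.4 in WT) and Mtmr14 (11.8 in RON TK-/-, 82.9 in WT), and nearest to Zfp36l1 were Slc17a5 (33.2 in RON TK-/-, 8.35 in WT) and H2afx (32.1 in RON TK-/-, 8.49 in WT). Pcolce and Dhrs1 were nearest to Zfp36l2, Mark4 and Syce2 to Rc3h1, and Zfyve1 and Mast2 to Elavl1.

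Of 8 paralogs of the 6 genes, 3 were detected. Zc3h12c, a second regnase gene, had 1.52 FPKM in the RON TK-/- labelled library, against 13.8 FPKM in the WT labelled library, a log2 ratio of -2.56 that lay close to that of Zc3h12a. The related Zc3h12d had 4.46 FPKM in RON TK-/- and 3.29 FPKM in WT. Rc3h2, which encodes roquin-2, had 6.63 FPKM in RON TK-/- and 8.01 FPKM in WT, and thus differed as little as Rc3h1. The placental family gene Zfp36l3 and the neuronal Elavl2 were listed at 0 in both libraries. Zc3h12b, Elavl3 and Elavl4 were below 1 FPKM in both.

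Among 12 other genes for proteins that bind AU-rich or cytokine mRNAs, 3 were higher by 2-fold or more and 2 lower by as much in the RON TK-/- labelled library (25% and 16.7%, against 25.6% and 8.71% of all detected genes), with a median log2 ratio of 0.10. Set against the all-gene median, 0 were higher and 3 lower, namely Arid5a, Zc3hav1 and Hnrnpd. On that scale 8.38% of all detected genes were higher and 14.4% lower. Arid5a, which protects Il6 mRNA from regnase-1, had 1.86 FPKM in the RON TK-/- labelled library, against 13.4 FPKM in the WT labelled library. The zinc finger antiviral protein gene Zc3hav1 had 28.6 FPKM in RON TK-/- and 63.0 FPKM in WT. The higher genes were Tia1 (7.58 FPKM in RON TK-/-, 2.49 in WT) and Tial1 (15.0 in RON TK-/-, 6.42 in WT), whose products silence translation, and Khsrp (18.5 in RON TK-/-, 8.16 in WT), a decay factor. These 3 were below 2-fold relative to the median.

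Genes of the general mRNA decay machinery, enzymes and their partners, were mostly within 2-fold, 37 of 52 genes. Over the deadenylation, decapping and exosome lists, 52 of 52 genes were detected, 11 higher by 2-fold or more and 4 lower by as much in the RON TK-/- labelled library (21.2% and 7.69%), with a median log2 ratio of 0.62. Those shares lie near the 25.6% and 8.71% of all detected genes. Set against the all-gene median, 3 were higher (Tob1, Exosc7 and Ttc37) and 5 lower (Btg1, Btg2, Cnot4, Dcp1a and Dcp2). On that scale 8.38% of all detected genes were higher and 14.4% lower. In the deadenylation list, with 4 of 18 higher and 3 lower (22.2% and 16.7%), the genes furthest apart were regulators that bind the deadenylases. The antiproliferative genes Btg2 (5.80 FPKM in the RON TK-/- labelled library against 30.4 in the WT labelled library) and Btg1 (28.3 in RON TK-/-, 119 in WT) were lower. Tob1 (13.7 in RON TK-/-, 2.28 in WT), of the same protein family, was higher, and the ubiquitin ligase gene Cnot4 had 8.03 FPKM in RON TK-/- and 19.0 FPKM in WT. The remaining higher genes of the list were Cnot3, Cnot8 and Tob2, at 2.27 to 2.35 times the FPKM of the WT labelled library. The CCR4-NOT scaffold Cnot1 had 19.9 FPKM in RON TK-/- and 13.6 FPKM in WT, and its deadenylase Cnot7 had 21.0 FPKM in RON TK-/- and 26.1 FPKM in WT.

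In the decapping and 5′ to 3′ decay list 2 of 18 genes were higher and 1 was lower, with a median of 0.33. The shares were 11.1% and 5.56%, against 25.6% and 8.71% of all detected genes. Dcp2, the decapping enzyme gene, had 6.39 FPKM in the RON TK-/- labelled library, against 14.3 FPKM in the WT labelled library. The scavenger decapping enzyme gene Dcps (16.5 in RON TK-/-, 5.89 in WT) and the enhancer of decapping Edc3 (7.16 in RON TK-/-, 2.80 in WT) were the higher genes, and Lsm2, of the Lsm ring, had 19.4 FPKM in RON TK-/- and 11.1 FPKM in WT. The exosome and SKI list had a median of 0.86. In this list 5 of 16 were higher and 0 lower (31.2% and 0%, against 25.6% and 8.71% of all detected genes). Exosc7 (9.27 FPKM in RON TK-/-, 2.22 in WT), Ttc37 (11.3 in RON TK-/-, 2.96 in WT), Dis3l (6.02 in RON TK-/-, 1.55 in WT) and the nuclease gene Dis3 (6.42 in RON TK-/-, 2.53 in WT) led it, and the fifth higher gene was Exosc3 (16.2 in RON TK-/-, 7.29 in WT). Set against the all-gene median, 2 of these 16 were still higher, beside 8.38% of all detected genes.

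Genes of proteins that act on the 6 proteins, directly or through upstream kinases, went in both directions. Of 15 genes 3 were higher by 2-fold or more and 3 lower by as much in the RON TK-/- labelled library (20.0% each, against 25.6% and 8.71% of all detected genes), with a median of 0.49. Set against the all-gene median, or with a minimum of 5 FPKM, 1 was higher, Mapk14, and 3 were lower. On the median scale 8.38% of all detected genes were higher and 14.4% lower. Malt1, the protease that cleaves regnase-1 and roquin-1, had 5.88 FPKM in the RON TK-/- labelled library, against 250 FPKM in the WT labelled library, a log2 ratio of -5.19. Mapkapk2, the kinase that phosphorylates ZFP36, had 53.6 FPKM in RON TK-/- and 283 FPKM in WT. Mapk14, the kinase directly above it, was opposite, with 43.6 FPKM in RON TK-/- and 7.97 FPKM in WT. The kinase gene Map2k6 had 3.51 FPKM in RON TK-/- and 0.82 FPKM in WT. Map2k3 went the other way (27.6 in RON TK-/-, 56.9 in WT). Dusp1, the phosphatase that switches this pathway off, had 14.4 FPKM in RON TK-/- and 8.43 FPKM in WT. The remaining gene past 2-fold was Btrc (2.21 in RON TK-/-, 0.47 in WT). Map2k6 and Btrc reached 1 FPKM only in the RON TK-/- labelled library, so the filter fixed their direction as higher. Map2k3 and Btrc were named after their values were seen.

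**Figure D4:**
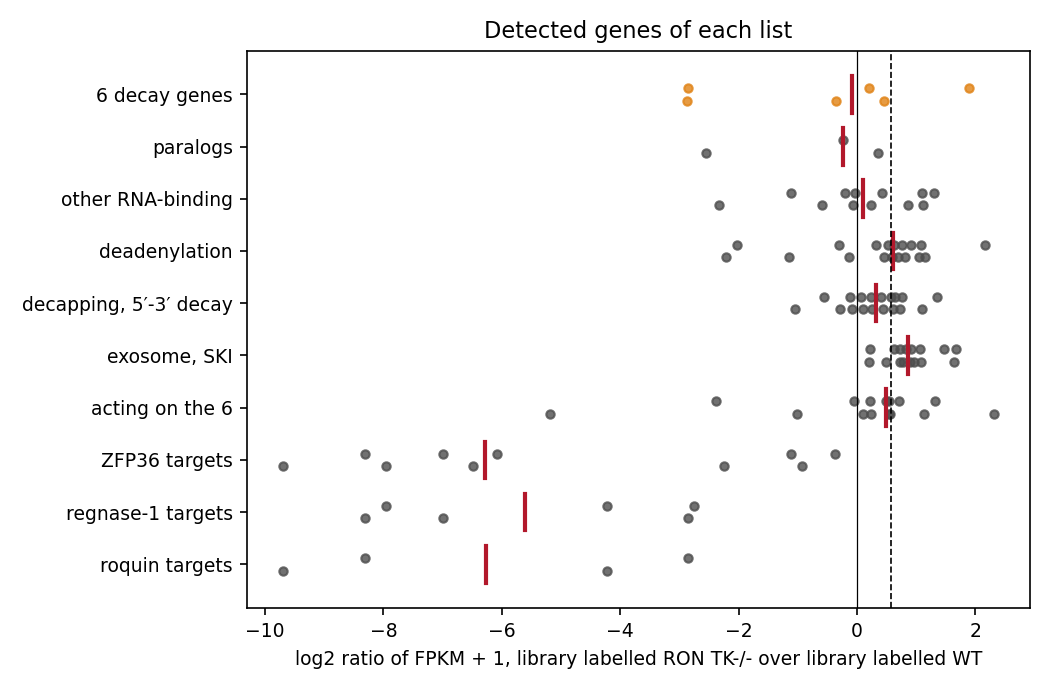
Log2 ratio (FPKM + 1) of each detected gene, RON TK-/- labelled library over WT labelled library, by list, with the list's median in red. The dashed line is the median of all detected genes, 0.57, and the thin line is 0. The deadenylation, decapping and exosome lists lie around the dashed line (medians 0.61, 0.33 and 0.86). Target lists lie to its left with medians of -6.29, -5.60 and -6.27. Some target genes, Tnf and Il6 among them, were detected through the WT labelled library alone. Other genes, Map2k6 and Btrc among them, were detected through the RON TK-/- labelled library alone.

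The mRNAs on which these proteins are reported to act were mostly lower in the RON TK-/- labelled library. Over the 3 lists 12 of 14 detected were lower by 2-fold or more, against 8.71% of all detected genes. Tnf, Il6, Csf2, Il23a, Il12b and Il10 reached 1 FPKM only in the WT labelled library. They counted as detected through that library alone, so the filter fixed their direction as lower. As background, many of these targets, and Zfp36 and Zc3h12a too, are known as genes of inflammatory activation. Of 10 transcripts reported as ZFP36 targets, 8 were at least 2-fold lower and 0 higher, with a median log2 ratio of -6.29. Tnf had 0.52 FPKM in the RON TK-/- labelled library against 1262 in the WT labelled library, and Il6 had 0.92 FPKM in RON TK-/- and 611 FPKM in WT. The other far lower targets were the chemokine genes Cxcl2 (1.16 in RON TK-/-, 535 in WT), Cxcl1 (6.08 in RON TK-/-, 634 in WT) and Ccl3 (19.9 in RON TK-/-, 1421 in WT) and the cyclooxygenase gene Ptgs2 (7.51 in RON TK-/-, 1079 in WT). Levels were low for Csf2 (0.07 in RON TK-/-, 4.08 in WT), Il23a (listed at 0 in RON TK-/-, 1.17 in WT) and Il10 (0.13 in RON TK-/-, 1.15 in WT). Ier3, an immediate early gene, had 92.0 FPKM in RON TK-/- and 119.9 FPKM in WT, and lay within 2-fold. Il10 counted as within 2-fold only because 1 FPKM was added before the ratio, which gave a log2 ratio of -0.94. Its FPKM was 9.22-fold higher in the WT labelled library, and with a pseudocount of 0.1 the lower targets numbered 9.

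The regnase-1 list had a median of -5.60, and 6 of 10 genes were detected, Il6 and Il12b through the WT labelled library alone. All 6 were at least 2-fold lower in the RON TK-/- labelled library. Besides Il6 and Ptgs2 these were Il12b (listed at 0 in the RON TK-/- labelled library against 248 FPKM in the WT labelled library), Nfkbiz (4.26 in RON TK-/-, 97.0 in WT), Nfkbid (1.66 in RON TK-/-, 18.2 in WT) and Rel (5.09 in RON TK-/-, 40.1 in WT). The roquin list had 4 of 6 detected, and these 4 (Tnf, Il6, Nfkbiz and Nfkbid) are shared with the lists above. Of them, Tnf and Il6 were detected through the WT labelled library alone. The lymphocyte targets Icos and Tnfrsf4 were below 1 FPKM in both libraries. The ratios of the target genes reached -9.69 for Tnf, while those of Zfp36 and Zc3h12a were -2.86 and -2.88. Steady-state levels do not separate synthesis from decay.

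Over all genes, the share lower in the RON TK-/- labelled library was set beside the number of nonamers in the 3′ UTR. Of 9618 detected genes with 0 nonamers 8.42% were at least 2-fold lower, of 612 with 1 nonamer 11.4%, of 103 with 2 nonamers 14.6%, and of 56 with 3 or more 21.4%. The shares at least 2-fold higher were 25.6%, 21.9%, 28.2% and 17.9%. The medians of the log2 ratio were 0.57, 0.45, 0.55 and 0.37. The classes overlap the genes named above. The 56 held the lower targets Tnf, Cxcl2 and Csf2, and Elavl1, which was within 2-fold. Cxcl1, also lower, was among the 103. The 612 held Ptgs2, Rel, Il23a and Zfp36, which were lower, and Zfp36l1, Zfp36l2 and Rc3h1, which were not lower by 2-fold. Tnf, Csf2 and Il23a were detected through the WT labelled library alone. Any gene that reached 1 FPKM in 1 library alone had its direction fixed by the filter, and such genes were not counted by class. Genes with nonamers had longer 3′ UTRs, with a median of 924 bases for 0 nonamers and 2664 for 3 or more. Within the shortest tercile of 3′ UTRs 16.4% of 73 genes with a nonamer were lower, against 7.42% of 3395 without. In the middle tercile the shares were 13.1% of 213 and 9.37% of 3245, and in the longest 11.8% of 485 and 8.53% of 2978.

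The contrast between the nonamer classes was smaller in proportion set against the all-gene median. On that scale 14.02% of genes with 0 nonamers were at least 2-fold lower in the RON TK-/- labelled library, against 14.4% of all detected genes. With 1, 2 and 3 or more nonamers the shares were 17.5%, 20.4% and 26.8%. Within terciles 17.8% with a nonamer and 11.6% without were lower on that scale in the shortest 3′ UTRs, 17.8% and 15.2% in the middle ones, and 19.0% and 15.4% in the longest. At least 8-fold lower on the deposited scale were 1.99%, 3.43%, 2.91% and 3.57% of genes with 0, 1, 2 and 3 or more nonamers, the last 2 shares resting on 3 and 2 genes. Those 2 genes were Tnf and Cxcl2, and Cxcl1 was 1 of the 3. This scan was added after the values of the 6 genes had been seen, and no test was made. The share of genes of inflammatory activation in each class was not tested.

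**Figure D5:**
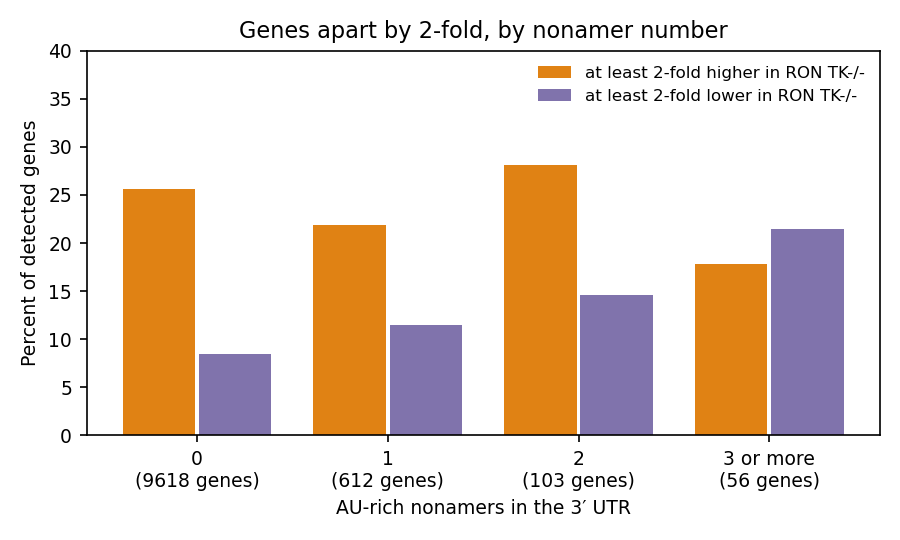
Percent of detected genes at least 2-fold higher (orange) and at least 2-fold lower (purple) in the RON TK-/- labelled library than in the WT labelled library, by the number of UUAUUUAUU nonamers in the 3′ UTR, on the deposited scale. The share lower is 8.42%, 11.4%, 14.6% and 21.4% from left to right. The class on the right holds only 56 genes, the targets Tnf, Cxcl2 and Csf2 among them.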

How the data were processed

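RNA was sequenced as single reads of 50 bases from TruSeq libraries of total RNA, per the labels' protocols. For each library the authors deposited FPKM per RefSeq transcript in a table whose columns have Cufflinks names, per the file headers. The deposited coverage signal is, per the file headers, a depth per base. Build mm10 and DESeq (no role) are named in the submitters' processing notes. The aligner, annotation release and strand use were not given in the sources used here. The files' locus starts were read as counted from 0.

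FPKM of a symbol's rows were summed, and genes of at least 1 FPKM in a library counted as detected. Estimated reads were coverage times length over 50. Their Poisson limits, and binomial limits of a ratio, are 95% limits of counting error only. Their totals are given with the libraries. No count model was used. The 3′ UTRs came from GENCODE vM21 (GRCm38, the assembly of mm10), matched for 92.04% of detected genes. The genes and lists were chosen with earlier results of these data known. In each decay list up to 4 detected genes with the largest absolute ratio were named, in target lists every detected gene, and all 8 state markers. Cnot1, Cnot3, Cnot7, Cnot8, Tob2, Dcp1a, Exosc3, Dusp1, Khsrp, Hnrnpd, Lck and the macrophage and fibroblast marker genes were added after their values were seen. The ratio step was run on Poisson copies of the WT labelled library's estimated reads with planted folds. These copies hold counting error only, so the run checks the computation and says nothing of the spread between cultures. Alternatives changed the pseudocount, filter, scaling, rows per gene and threshold. Python 3.11.15, pandas 2.3.3 and SciPy 1.17.1 were used.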

Additional observations from a re-analysis of the deposited data

How the results depend on the processing

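The directions of Zfp36, Zc3h12a and Zfp36l1 held under every alternative. The calls of 2 genes lower and 1 higher held under each alternative taken by itself, except that a 4-fold threshold left 0 higher. That exception rests on the added 1 FPKM, since the ratio of FPKM of Zfp36l1 was 4.05 but its log2 ratio 1.90. Set against the all-gene median, Rc3h1 too was past 2-fold lower with a pseudocount of 0.1 (-1.05). Rescaling to a median ratio of 0 gave log2 ratios of -3.42 (Zfp36), 1.33 (Zfp36l1), -0.11 (Zfp36l2), -3.44 (Zc3h12a), -0.92 (Rc3h1) and -0.37 (Elavl1), so Zfp36l2 and Elavl1 changed sign. Rescaling to TPM gave -2.94 for Zfp36, 0.39 for Zfp36l2, -3.002 for Zc3h12a and -0.44 for Rc3h1. A pseudocount of 5 gave -2.71 for Zfp36, 1.53 for Zfp36l1, -2.51 for Zc3h12a and -0.24 for Rc3h1, and a pseudocount of 0.1 gave 2.01 for Zfp36l1 and -2.98 for Zc3h12a. Relative to Elavl1, the log2 difference between the libraries under a pseudocount of 5 was -2.85 for Zfp36, 1.39 for Zfp36l1, -2.66 for Zc3h12a and -0.38 for Rc3h1, and under 0.1 it was -3.19 for Zc3h12a. From estimated reads Zfp36l1 held 28.3% of the family in the RON TK-/- labelled library.

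All detected genes numbered 2890 at least 2-fold higher and 983 lower. There were 983 higher with a pseudocount of 5, 946 higher and 1627 lower after median rescaling, 5519 higher at 1.5-fold, and 419 higher and 463 lower at 4-fold. The other decay lists together had 17 genes higher and 10 lower as reported, 3 higher with a pseudocount of 5, 4 higher after median rescaling, 37 higher at 1.5-fold, and 2 higher and 6 lower at 4-fold. The causes were not tested. No paired analysis was possible because each group had 1 library. Depth does not limit the 6 genes, each with at least 1441 estimated reads, but counting limits say nothing of the spread between cultures.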
